A study of Mus musculus with 4 samples.

Results

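The 8 genes described here are targets that progesterone is known to induce in the mouse uterus, namely Acod1, Il13ra2, Hdc, Lrp2, Errfi1, Gata2, Zbtb16 and Tsc22d3. They were taken by symbol from a table of 54152 gene symbols, each matched 1 row, and all 8 passed the filter on low counts. The tissue was the whole uterus, taken from C57 mice at day 4 of pregnancy. Of the 4 libraries, 2 carry the genotype label P38α dd and 2 the label P38α ff, and the series title sets p38α knockout against wild type. The sources used here do not give the age, the promoter that drives the deletion, or whether replicates are separate animals, so the p-values reflect the spread among 4 libraries, which may be technical.

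Progesterone acts on the uterus through its nuclear receptor, the product of Pgr, which binds DNA and changes transcription in both epithelium and stroma. In the days before implantation it stops the estrogen-driven growth of the epithelium and prepares the stroma for the embryo. Among the genes it induces are enzymes, surface receptors, a brake on growth factor signalling and transcription factors, and several are also induced by glucocorticoids in other tissues, because both receptors bind similar DNA elements.

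The libraries held between 24619850 and 32451670 counts, and mitochondrial transcripts took between 5.24% and 6.97% of them. Mapk14, which encodes p38α, had 2481 and 3429 counts in the libraries labelled dd, against 3074 and 2710 in those labelled ff. Scaled by TMM to a common library size (CPM), it had 105 and 113.2 in dd, against 92.35 and 87.01 in ff. The log2 change was 0.28 (SE 0.0898, 95% interval 0.051 to 0.52, edgeR unadjusted p = 0.026, adjusted p = 0.12). Mapk14 was thus not lower in dd, and on this scale both dd libraries lay above both ff libraries, although it was not called. A loss of single exons would not be visible in gene-level counts, and each direction below rests on the labels. The member counts were high enough that counting error was small. The lowest, 556 counts of Zbtb16 in dd replicate 2, has an exact 95% Poisson interval of 510.7 to 604.2, which covers counting error only.

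The members lie on 6 chromosomes, with Lrp2 and Hdc on chromosome 2 and Tsc22d3 and Il13ra2 on X. In mm10 coordinates Hdc spans chromosome 2 from 126593667 to 126619299, Gata2 chromosome 6 from 88193891 to 88207032, and Zbtb16 chromosome 9 from 48654297 to 48836222. Acod1 spans chromosome 14 from 103046977 to 103056573, Lrp2 chromosome 2 from 69424340 to 69586065, Il13ra2 chromosome X from 147383476 to 147429192 and Tsc22d3 chromosome X from 140539528 to 140600659. Errfi1 (chromosome 4, 150853919 to 150868892) was the 1 member with an annotated gene on the opposite strand over its exons, 1700045H11Rik. That neighbour had 3 and 1 counts in dd and none in ff, and without strand information its reads cannot be told from those of Errfi1.

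RefSeq promoter windows, from 250 bases before to 50 bases after a transcription start, were held for 7 of the 8 members in 11 windows (GRCm38.p6); Zbtb16 had none. The windows were searched on both strands for the steroid receptor hexamer AGAACA, for the steroid response element (that hexamer, 3 free bases and its reverse complement), for the estrogen response element (GGTCA, 3 free bases and its reverse complement) and for the GATA motif AGATAA. The hexamer is contained in the full steroid element. Neither full palindrome was in a member window, and over all 32851 windows the steroid palindrome was in 0.00913% and the estrogen one in 0.07%. The hexamer stood in 2 of 11 member windows (18.2%), beside 19% of all windows. The GATA motif likewise stood in 2 of 11 (18.2%), beside 11.2% of all windows. On the strand of the gene alone, the hexamer was in 0 of 11 member windows (10.2% of all) and the GATA motif in 1 (5.86% of all). The 4 windows with a match are shown because they carry the motifs of the hormone receptor and of a member's own protein, with each match in capitals. Read 5′ to 3′ on the strand of the gene, they are chr2:126618629-126618928 (Hdc, minus strand), chrX:140600473-140600772 (Tsc22d3, minus strand), chr4:150853546-150853845 (Errfi1, plus strand) and chrX:147429143-147429442 (Il13ra2, minus strand).
Hdc, steroid hexamer: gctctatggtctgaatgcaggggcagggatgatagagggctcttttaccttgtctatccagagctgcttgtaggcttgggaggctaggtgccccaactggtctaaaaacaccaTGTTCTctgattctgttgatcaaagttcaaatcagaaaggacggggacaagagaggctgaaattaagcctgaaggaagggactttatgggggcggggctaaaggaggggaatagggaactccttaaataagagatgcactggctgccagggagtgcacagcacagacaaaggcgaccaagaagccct
Tsc22d3, steroid hexamer: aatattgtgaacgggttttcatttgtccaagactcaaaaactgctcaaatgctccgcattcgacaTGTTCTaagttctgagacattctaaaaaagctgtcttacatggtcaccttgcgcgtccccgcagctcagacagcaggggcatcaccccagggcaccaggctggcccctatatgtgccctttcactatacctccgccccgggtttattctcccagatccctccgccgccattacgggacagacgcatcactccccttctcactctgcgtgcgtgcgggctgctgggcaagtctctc
Errfi1, GATA motif: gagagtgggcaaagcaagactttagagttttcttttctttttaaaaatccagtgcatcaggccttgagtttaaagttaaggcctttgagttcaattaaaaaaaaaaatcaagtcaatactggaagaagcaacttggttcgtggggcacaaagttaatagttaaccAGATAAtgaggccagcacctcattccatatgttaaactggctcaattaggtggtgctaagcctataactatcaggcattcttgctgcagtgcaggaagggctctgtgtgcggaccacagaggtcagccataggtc
Il13ra2, GATA motif: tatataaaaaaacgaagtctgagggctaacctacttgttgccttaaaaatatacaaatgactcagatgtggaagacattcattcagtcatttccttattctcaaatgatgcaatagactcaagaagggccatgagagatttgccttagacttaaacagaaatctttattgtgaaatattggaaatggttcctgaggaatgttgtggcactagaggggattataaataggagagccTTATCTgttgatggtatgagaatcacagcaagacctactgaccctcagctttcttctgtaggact
The matches began 137 bases before the start site in Hdc, 185 in Tsc22d3, 85 in Errfi1 and 15 in Il13ra2. The windows also differed in base composition, with a GC content of 37.7% in Il13ra2 and 73.7% in the downstream Gata2 window, against a median of 52.7% over all windows. Both Gata2 windows, the Lrp2 window and 1 Errfi1 window held between 20 and 41 CpG dinucleotides. The windows of Hdc, Acod1 and Il13ra2 held 3, 2 and 1, where the median window held 7.

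Of the 8 members, Hdc was higher in the libraries labelled dd, and none of the other 7 passed edgeR's quasi-likelihood test. Among all 18530 tested genes 4.52% were called higher and 3.86% lower at an adjusted p under 0.05, 8.39% together, and 1 of 8 members was called. With library size alone as the scale, the split over all genes was 751 higher and 1020 lower, against 838 and 716 with TMM. Without adjustment 3 members had p under 0.05 in the higher direction (background 14.9%) and 1 in the lower direction (background 14.4%, and 29.3% in either). DESeq2 called 2 members higher, Hdc and Gata2, and 0 lower. Log2 changes were above 0 in 5 members and below 0 in 3, with a median of 0.50 beside 0.0022 over all tested genes. The groups did not overlap in 5 members, 3 with dd above ff (31.6% of all tested genes) and 2 with dd below (31.3%), beside 62.8% of all tested genes in either direction.

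**Figure D1:**
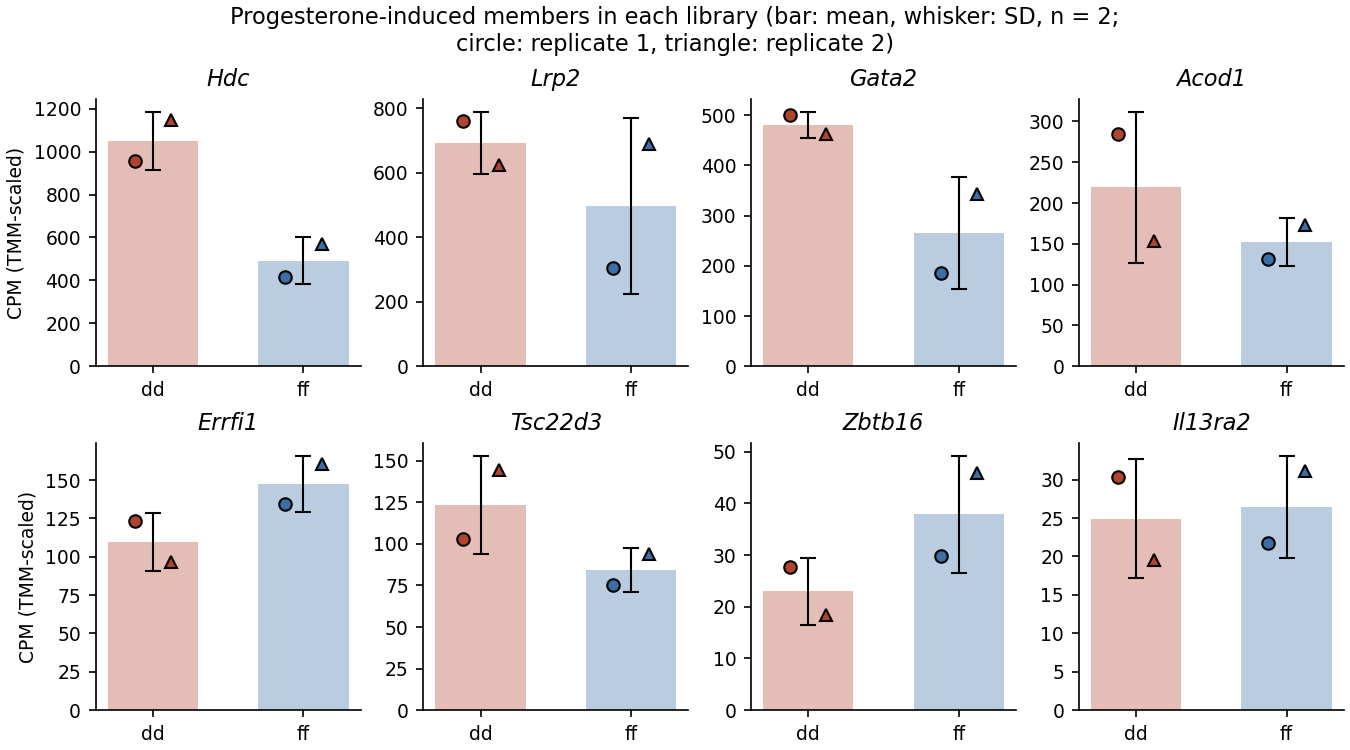
CPM (counts scaled by TMM to a common library size) of each member in the 2 dd and 2 ff libraries; bars are means, whiskers SD and points single libraries, and each panel has its own axis from 0. In Hdc both dd libraries lie above both ff libraries, whereas in Lrp2, Acod1 and Il13ra2 the groups overlap.

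Hdc encodes histidine decarboxylase, the enzyme that makes histamine, which in mice is produced in the uterus before implantation. It had 954.5 and 1147 CPM in dd replicates 1 and 2, against 414.2 and 570.2 CPM in ff replicates 1 and 2. The lower dd library was 1.67 times the higher ff library, a wider gap than the 1.20-fold difference between the dd libraries or the 1.38-fold difference between the ff libraries. Means were 1051 ± 136.1 CPM in dd and 492.2 ± 110.3 CPM in ff (SD, n = 2 each), a log2 change of 1.09 (95% interval 0.57 to 1.62) with an edgeR adjusted p of 0.0435. Each library was also left out in turn, in edgeR fits that assume the lone library varies like the other group. The call was kept when ff replicate 2 was left out (log2 1.34, adjusted p = 0.0413). It was lost when dd replicate 1 was (log2 1.23, adjusted p = 0.0801), when dd replicate 2 was (log2 0.96, adjusted p = 0.122) and when ff replicate 1 was (log2 0.88, adjusted p = 0.117). With all 4 libraries it also missed the threshold in limma-trend on the deposited FPKM (adjusted p = 0.0516). In the authors' deposited table the fold of Hdc is 2.14 and its p, unadjusted, 0.0184.

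Mast cells store histamine and express Hdc, so their markers were set beside it. Leaving out Kit, which other cells also express, the 8 remaining mast cell markers summed to 30.9 and 15.2 CPM in dd and 13.3 and 5.75 CPM in ff. Hdc was between 30.8 and 75.7 times that sum in dd and between 31.2 and 99.2 times in ff. Among the mast cell proteases, Cpa3 had 173 and 83 counts in dd and 110 and 44 in ff, and Tpsb2 had 200 and 151 counts in dd and 114 and 54 in ff. Cma1 had 177 and 84 counts in dd and 74 and 38 in ff, and Mcpt4 had 153 and 124 counts in dd and 121 and 35 in ff. In each of the 4, replicate 1 was the higher library of both groups, whereas Hdc was higher in replicate 2 of both. Tpsab1, Ms4a2, Fcer1a and Mrgprb2 had at most 10 counts in any library, with Ms4a2 at 0 in ff replicate 2. No mast cell marker was called by edgeR among 5 tested, with 2 higher and 1 lower (Kit) at an unadjusted p under 0.05. Log2 changes were above 0 in 4 of the 5 and below 0 in 1 (Kit), with a list median of 1.14. DESeq2 called 1 higher and 0 lower, and edgeR with replicate number as a block called 1 higher and 1 lower. The part of these cells in the Hdc difference was not tested.

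In the histamine pathway, the only call among 7 tested genes was Maob, a monoamine oxidase that takes part in the breakdown of histamine metabolites, which fell to 109.5 ± 10.6 CPM in dd, against 268.3 ± 13 CPM in ff (log2 -1.29, adjusted p = 0.0165 by edgeR). That call was lost without ff replicate 1 (log2 -1.34, adjusted p = 0.0518). The median of the list was 0.016. Hnmt, which methylates histamine and is named after its values were seen, was at 25.9 ± 7.48 CPM in dd and 16.2 ± 3 CPM in ff and did not pass. Receptor transcripts were scarce: Hrh3 and Hrh4 had at most 16 counts in a library and were not tested.

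Acod1, formerly Irg1, encodes the mitochondrial enzyme that makes itaconate and is induced by progesterone in the mouse uterine epithelium. It had 284.8 and 153.3 CPM in dd, against 131.3 and 173.5 CPM in ff. The dd libraries differed by 1.86-fold and enclosed ff replicate 2, so the groups overlapped. The log2 change of 0.52 (95% interval -0.31 to 1.36) did not pass (edgeR adjusted p = 0.342), and without dd replicate 1 it was 0.015. Macrophages and neutrophils also make Acod1 when activated. Macrophage markers, all 9 with log2 changes below 0, summed to 228 and 219.9 CPM in dd and 368.2 and 394.6 CPM in ff. Neutrophil markers summed to 7.7 and 7.23 CPM in dd and 8.35 and 14.5 CPM in ff. Of the 4 tested, 3 had log2 changes below 0, and Mpo had 34 and 25 counts in dd and 27 and 24 in ff (log2 0.50, edgeR adjusted p = 0.43), while Elane was at 0 in every library. The part of these cells in the Acod1 values was not tested. Of 14 genes for enzymes and regulators around itaconate, Idh1, the cytosolic isocitrate dehydrogenase, rose to 65.8 ± 6.76 CPM in dd, against 45.4 ± 0.597 CPM in ff (log2 0.54, edgeR adjusted p = 0.048), and 0 fell (1 lower at an unadjusted p under 0.05, DESeq2 called 3 higher and 0 lower), with a median of 0.14. The Idh1 call was lost whichever library was left out (adjusted p 0.0848 to 0.166).

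Lrp2 encodes megalin, a large endocytic receptor of epithelia that takes up proteins and hormone carriers. It had 761.1 and 625.1 CPM in dd, against 304.4 and 688.5 CPM in ff. Here the ff libraries differed 2.26-fold, and ff replicate 2 lay inside the range of the dd libraries. The log2 change was 0.48 (95% interval -0.54 to 1.51, edgeR adjusted p = 0.467). Leaving out ff replicate 1 gave 0.0095, and leaving out ff replicate 2 gave 1.19, which passed (adjusted p = 0.0493). Among 7 tested partners of megalin, Dab2, an adaptor for its uptake that macrophages also express, fell to 93.5 ± 14.5 CPM in dd, against 157.7 ± 7.36 CPM in ff (log2 -0.76, edgeR adjusted p = 0.04), in libraries with lower macrophage markers (above), and lost its call whichever library was left out (adjusted p 0.0544 to 0.133). The part of macrophages in the Dab2 difference was not tested. The list median was 0.036. Lrpap1, the chaperone of megalin, named after its values were seen, was at 333.9 ± 23 CPM in dd and 201.1 ± 79.6 CPM in ff and did not pass.

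Il13ra2 encodes a receptor chain that binds interleukin 13 and is best known as a decoy. Its levels were 30.4 and 19.5 CPM in dd, against 21.7 and 31.2 CPM in ff, so both groups covered nearly the same range. The log2 change was -0.087 (95% interval -0.82 to 0.64, edgeR adjusted p = 0.864), and its sign turned without dd replicate 2 or ff replicate 2 (0.20 in both). The ligand gene Il13 had at most 1 count in any library. Jak1, a kinase of the interleukin 4 and 13 receptors and of many others, was the call among 7 tested genes of this pathway, at 195.6 ± 3.95 CPM in dd and 351.7 ± 63.4 CPM in ff (log2 -0.85, edgeR adjusted p = 0.0402). It passed with ff replicate 2 left out (adjusted p = 0.0317) and with no other library left out (adjusted p 0.0924 to 0.133). The list median was -0.19.

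Errfi1, also called Mig-6, encodes an inhibitor of the EGF receptor family that limits epithelial growth in the uterus. It had 123 and 96.4 CPM in dd, against 134.6 and 160.6 CPM in ff. Both dd libraries were below both ff libraries, by a gap of 1.095-fold, smaller than the differences within dd (1.275-fold) or within ff (1.19-fold). The log2 change of -0.43 (95% interval -0.84 to -0.016) did not pass after adjustment (edgeR adjusted p = 0.16). Of 8 tested genes for EGF family receptors and their ligands, 3 were higher and 0 lower (1 lower at an unadjusted p under 0.05). DESeq2 called 4 higher and 0 lower, and the list median was 0.82. Erbb2, a receptor of this family, was at 81.2 ± 12.2 CPM in dd and 44.8 ± 0.902 CPM in ff (log2 0.86, edgeR adjusted p = 0.0306), and passed without dd replicate 1 alone (otherwise adjusted p 0.074 to 0.104). The ligand gene Nrg1 had 119 and 121 counts in dd and 23 and 26 in ff (log2 2.56, edgeR adjusted p = 0.0229) and passed without ff replicate 2 alone (otherwise adjusted p 0.0534 to 0.0836). In limma-trend on log2(FPKM + 0.5), a scale on which the pseudocount exceeds its mean FPKM in both groups (0.436 in dd and 0.0736 in ff), its log2 change was 0.70. Hbegf, another ligand, was at 12.7 ± 1.11 CPM in dd and 7.06 ± 0.502 CPM in ff (log2 0.85, edgeR adjusted p = 0.0499), and lost its call whichever library was left out (adjusted p 0.109 to 0.159). Ligands did not all move one way: Areg, kept on the list of progesterone-responsive genes and named after its values were seen, had 2.84 and 4.56 CPM in dd, against 14.4 and 8.96 CPM in ff (log2 -1.66, edgeR adjusted p = 0.0593, not called). Ereg, too scarce to test, had 2 and 5 counts in dd and 47 and 9 in ff, and Egf had 21 and 23 counts in dd and 46 and 59 in ff (log2 -0.99, edgeR adjusted p = 0.121). The dd libraries also had higher epithelial markers (median log2 change 0.97), whose part in these differences was not tested.

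Gata2 encodes a zinc finger transcription factor that acts with the progesterone receptor and is needed for its expression in the mouse uterus. It had 499.6 and 462.5 CPM in dd, against 185.8 and 343.8 CPM in ff. Both dd libraries stood above both ff libraries, and the spread lay in ff, where the libraries differed 1.85-fold against 1.08-fold in dd. The log2 change of 0.86 (95% interval 0.083 to 1.64) did not pass edgeR (adjusted p = 0.143). It passed in edgeR without ff replicate 2 (log2 1.37, adjusted p = 0.0276) and without a filter (adjusted p = 0.0377), and in DESeq2 (adjusted p = 0.0286), and was 0.48 without ff replicate 1. Pgr, the receptor gene, was at 214.5 ± 2.59 CPM in dd and 152.6 ± 2.23 CPM in ff, the 1 call among 4 tested steroid receptor genes (log2 0.49, edgeR adjusted p = 0.0392; list median 0.42). That call was lost whichever library was left out (adjusted p 0.091 to 0.14) and with library size alone (adjusted p = 0.0544). Of 7 tested GATA factors and cofactors, 2 fell and 0 rose (1 higher at an unadjusted p under 0.05, DESeq2 called 1 higher and 2 lower), with a list median of -0.61. Both that fell, Tal1 and Lmo2 (log2 -1.24 and -0.89, edgeR adjusted p = 0.0262 and 0.0289), are factors of blood and endothelial cells. Endothelial markers were lower in the same libraries (median -0.81). The part of endothelial cells in the falls of Tal1 and Lmo2 was not tested. Their calls were lost whichever library was left out (adjusted p 0.0536 to 0.0958 for Tal1 and 0.0632 to 0.0799 for Lmo2).

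Zbtb16 encodes PLZF, a BTB zinc finger repressor that progesterone induces in the uterine stroma. It had 27.6 and 18.4 CPM in dd, against 29.9 and 45.9 CPM in ff. All dd values were below all ff values, but dd replicate 1 and ff replicate 1 stood only 1.08-fold apart while the dd replicates differed by 1.5-fold and the ff replicates by 1.54-fold. The log2 change of -0.72 (95% interval -1.47 to 0.026) did not pass (edgeR adjusted p = 0.181). Stromal markers were also lower in dd (median -0.68), and in whole uterus fewer cells of a type and less RNA per cell cannot be told apart. Of 12 related BTB factors and corepressors, Zbtb7b rose to 104.6 ± 2.85 CPM in dd, against 67.5 ± 3.52 CPM in ff (log2 0.63, edgeR adjusted p = 0.0279), and missed the threshold whichever library was left out (adjusted p 0.051 to 0.0999). The list median was 0.19. The corepressor gene Ncor1, named after its values were seen, was at 266.4 ± 18.8 CPM in dd and 224.6 ± 18.3 CPM in ff and did not pass.

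Tsc22d3 encodes GILZ, a leucine zipper protein that glucocorticoids induce strongly and that restrains inflammatory signalling. It had 102.8 and 144.5 CPM in dd, against 75.2 and 93.8 CPM in ff. The dd libraries were above the ff libraries by 1.10-fold, less than the 1.405-fold difference within dd. The log2 change of 0.55 (95% interval 0.0245 to 1.07) did not pass after adjustment (edgeR adjusted p = 0.158). Among 6 relatives and partners edgeR called none, none had an unadjusted p under 0.05, and DESeq2 called 0 higher and 0 lower. The list median was -0.069. The 2 with the highest mean CPM, a value that is not corrected for length, were the relative Tsc22d1, at 450.2 ± 11.5 CPM in dd and 449.8 ± 36.8 CPM in ff, and the kinase gene Wnk1, at 270.7 ± 2.92 CPM in dd and 298.1 ± 2.13 CPM in ff.

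**Figure D2:**
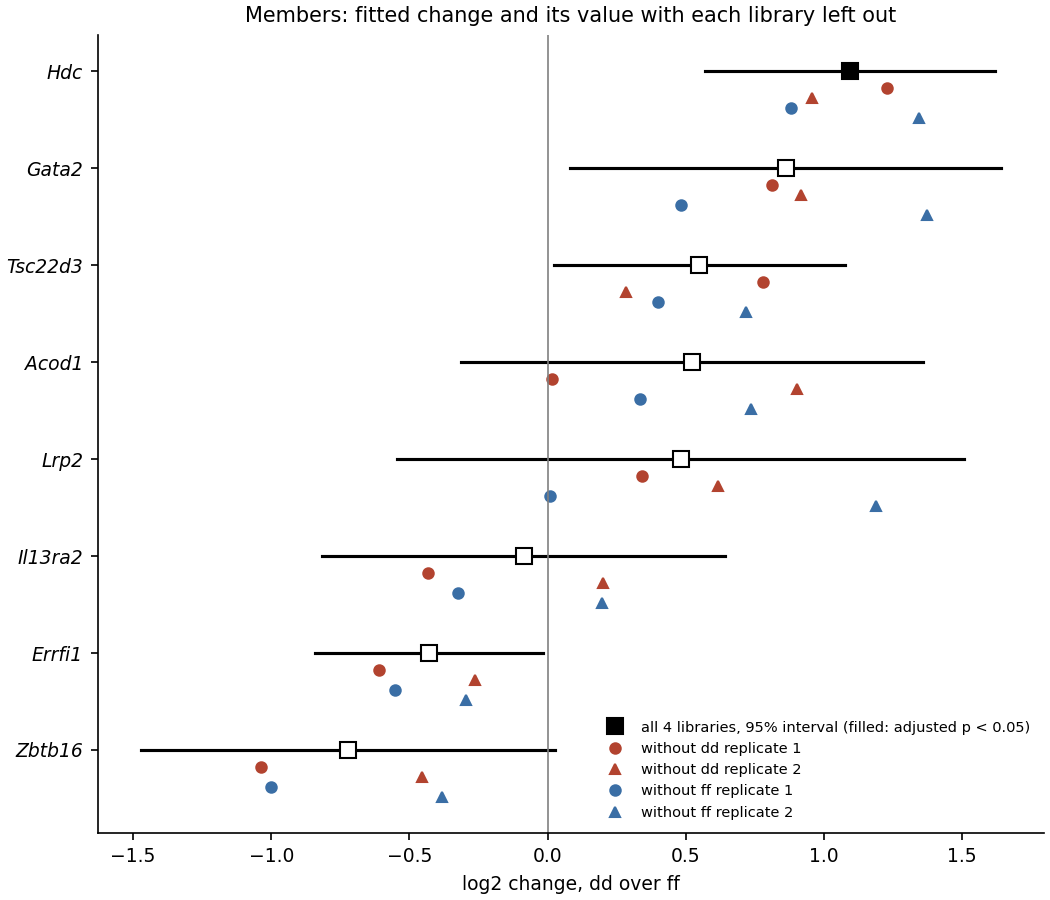
Log2 change of dd over ff for each member from edgeR, with its 95% interval (squares, filled where the adjusted p is under 0.05) and the value when 1 library is left out (coloured points). Hdc is the filled square at 1.09. The points of Lrp2 run between 0.0095 and 1.19, and those of Il13ra2 fall on both sides of 0.

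The ff libraries took the same order in every member. For all 8, ff replicate 1 was the lower of the pair, while 50.2% of the 12430 tested genes with at least 5 CPM on average were lower there. The same was seen in 11 of 26 other progesterone-responsive genes (42.3%), 9 of 15 epithelial markers and 2 of 12 stromal markers. The ratio of the higher to the lower ff library ran between 1.19 in Errfi1 and 2.26 in Lrp2, above the median of 1.10 over those genes, and the share of those genes with a larger ratio was 26.5% for Errfi1, 19.1% for Tsc22d3, 13.2% for Acod1, 10.2% for Hdc, 8.5% for Il13ra2, 6.23% for Zbtb16, 3.23% for Gata2 and 1.97% for Lrp2. In dd the order was mixed, with dd replicate 1 lower in 2 members (Hdc and Tsc22d3). There the ratio was 1.08 in Gata2 and between 1.20 and 1.86 in the other members, against a median of 1.09.

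Levels of different genes were compared on the deposited FPKM, which divides by gene length. Hdc had the highest level in both groups, 164.4 ± 22.5 FPKM in dd and 76.9 ± 17.1 FPKM in ff, and Zbtb16 the lowest, 4.34 ± 1.2 FPKM in dd and 7.16 ± 2.13 FPKM in ff. Between them in dd came Gata2 (89), Acod1 (83.3), Lrp2 (41.4), Errfi1 (30.6), Tsc22d3 (28.5) and Il13ra2 (10.9), as mean FPKM. In ff the order was Acod1 (58), Gata2 (49), Errfi1 (41.2), Lrp2 (29.7), Tsc22d3 (19.4) and Il13ra2 (11.6). In ff the ranges of neighbours overlapped from Hdc down to Tsc22d3, and Tsc22d3, Il13ra2 and Zbtb16 stood apart from each other. In dd Hdc stood above every other member, Acod1 overlapped Gata2, and Tsc22d3 lay within reach of Errfi1 (27 to 34.1 FPKM) and below Lrp2. The lengths behind these values matched the union of all annotated exons. For Hdc that union is 6.39 kb, although its longest coding transcript has 2.39 kb, and for Tsc22d3 it is 4.34 kb against 1.97 kb. Per kilobase of the longest coding transcript, Hdc reached 399 and 479.5 CPM per kb in dd and 173.2 and 238.4 in ff, the highest of the members in every library. On that scale Tsc22d3 lay above Errfi1 in dd (52.1 and 73.2 CPM per kb against 40.4 and 31.7) and below it in each ff library (38.1 and 47.5 against 44.2 and 52.8). In ff Gata2 (52 and 96.3 CPM per kb) and Acod1 (50.1 and 66.1 CPM per kb) changed places relative to their order by mean FPKM, with overlapping ranges on both scales.

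A wider list of 26 other progesterone-responsive genes, all of them tested, moved in both directions, with 2 called higher, 3 lower and 21 not called by edgeR (7.69% and 11.5%, beside 4.52% and 3.86% of all tested genes). The median log2 change was -0.22. Sgk1, a kinase that regulates epithelial sodium transport, rose to 227.7 ± 20.6 CPM in dd, against 43.05 ± 2.72 CPM in ff (log2 2.40, edgeR adjusted p = 0.00974). Fkbp4, a co-chaperone of the progesterone receptor, rose to 502 ± 4.91 CPM in dd, against 316.2 ± 24.1 CPM in ff (log2 0.67, edgeR adjusted p = 0.0354). The homeobox genes Hoxa10 and Hoxa11 fell by 0.51 and 0.50 on the log2 scale (edgeR adjusted p = 0.0458 and 0.0364), and Klf9, a zinc finger factor that interacts with the progesterone receptor, fell by 0.67 (edgeR adjusted p = 0.0283). Hoxa11 is also on the stromal list. Of these 5, Sgk1 passed whichever library was left out (adjusted p up to 0.0396), and the other 4 lost their calls whichever library was left out (adjusted p 0.0583 to 0.15). Cyp26a1, a retinoic acid hydroxylase induced by progesterone in the epithelium, is named for its spread after its values were seen: it had 72 and 75 counts in dd and 7522 and 101 in ff (log2 -5.38, edgeR adjusted p = 0.152, with -0.23 when ff replicate 1 is left out and -6.36, adjusted p = 0.00646, when ff replicate 2 is).

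**Figure D3:**
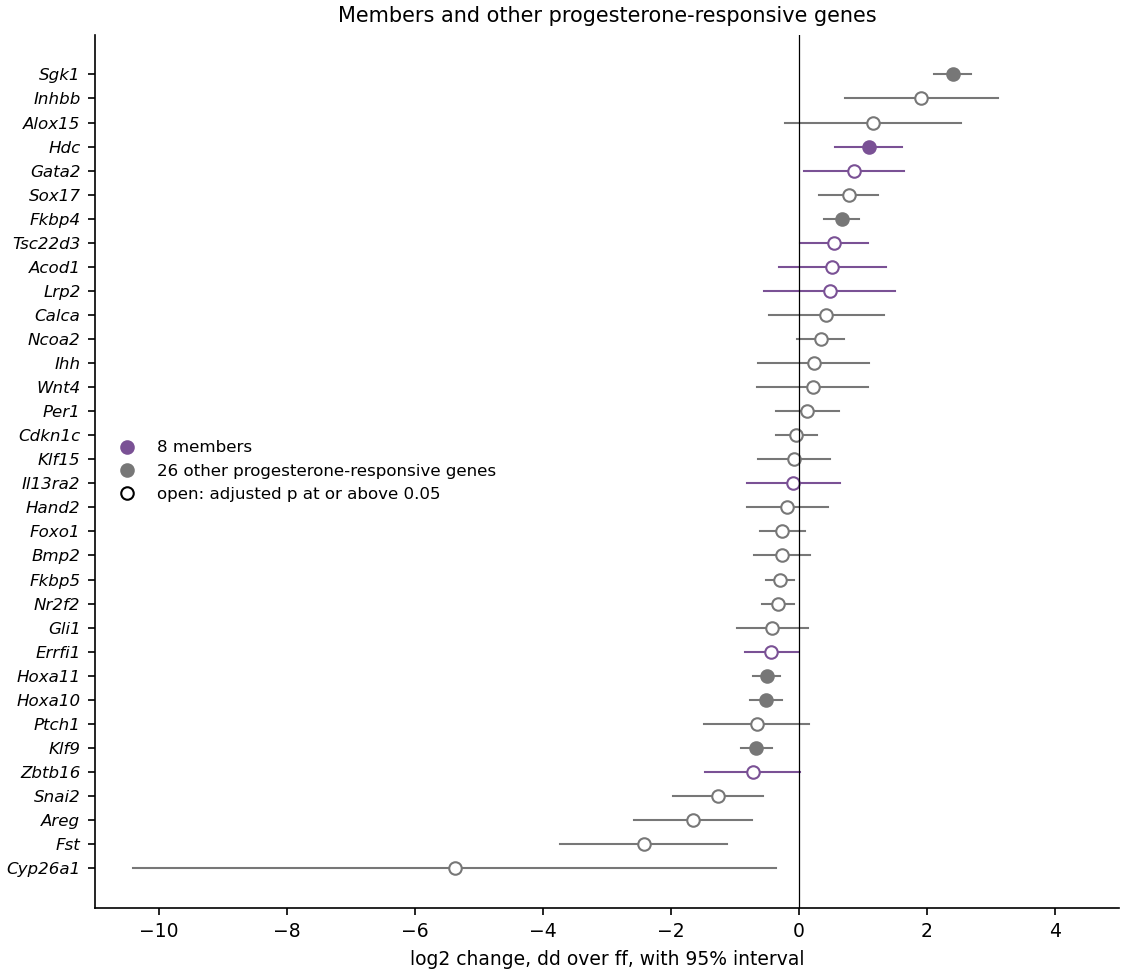
Log2 change of dd over ff with its 95% edgeR interval for the 8 members (purple) and 26 other progesterone-responsive genes (grey), filled where the adjusted p is under 0.05. Both sets spread to either side of 0, between Sgk1 at 2.40 and Cyp26a1 at -5.38, and Hdc is the filled member.

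Zbtb16 and Tsc22d3 are textbook glucocorticoid targets too, so 18 genes induced by either receptor in many tissues were read alongside, 6 of them shared with the list above. Sgk1 rose, and Klf9 and Cebpd fell, the last a leucine zipper factor at 12 ± 3.15 CPM in dd and 52.6 ± 20.8 CPM in ff (log2 -2.13, edgeR adjusted p = 0.0346, passing without ff replicate 2 alone and otherwise with adjusted p 0.0725 to 0.107). The median of this list was -0.058.

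Markers of tissue compartments differed between the groups and are given here because several members are made in 1 compartment. Epithelial markers were higher, with 15 of 15 above 0, 6 called, and sums of 3051 and 3563 CPM in dd, against 1325 and 1586 CPM in ff. The keratin gene Krt19 alone gave 703.3 CPM of that sum in dd and 92.2 in ff, on average. Stromal markers were lower, with 11 of 12 below 0, 5 called, and sums of 12130 and 8887 CPM in dd, against 17430 and 15430 CPM in ff. Endothelial markers had 8 of 10 called lower (median -0.81), macrophage markers 5 of 9 (median -0.88) and lymphocyte markers 1 of 7 (median -0.95), which was Il2rb, named after its value was seen. Of the lymphocyte markers 5 were below 0 and 2 above, Cd3g and Cd3e (log2 0.61 and 0.20, not called). Oviduct markers had 3 of 5 called higher (median 1.47) and red cell markers 4 of 5 (median 1.68). In each of these 2 lists 1 marker was below 0 and not called, Wt1 (log2 -0.46) and Hba-a2 (log2 -2.62). Gland markers had 1 of 6 called lower and 3 of 6 above 0 (median -1.19). The called one, Spink1, was also named after its value was seen. The gland sum was 133.6 and 109.4 CPM in dd, against 357.4 and 118.7 CPM in ff, so ff replicate 1 stood apart and ff replicate 2 lay between the dd libraries. Prss29, a gland protease, had no counts in dd and 4319 and 10 in ff. Cxcl15, the most abundant gland marker, was at 74.2 ± 2.34 CPM in dd and 39.4 ± 23.6 CPM in ff. Its log2 change of 0.91 was not called (edgeR adjusted p = 0.226). The others above 0 were Foxa2 and Sox9 (log2 0.53 and 0.79, not called). Of 7 muscle markers and 4 neutrophil markers edgeR called 0 (medians 0.25 and -0.58), and at an unadjusted p under 0.05 there were 0 muscle and 1 neutrophil marker. DESeq2 called none of either list. Without dd replicate 2 or ff replicate 1, 0 epithelial, 0 stromal and 0 macrophage markers were called, and without dd replicate 1 there were 4 epithelial, 0 stromal and 1 macrophage. Endothelial calls numbered 1 or 2 in these 3 fits. Oviduct calls numbered 1 in each of them. Red cell calls were fewer whichever library was left out and were lost without ff replicate 1. They went in both directions without dd replicate 1. The gland call was lost without either dd library and the lymphocyte call without dd replicate 2 or ff replicate 1. Without ff replicate 2 macrophage markers were still called lower, and gland markers were called in both directions.

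The members were also set against the epithelial sum in the same library, a scale added after seeing the data. Hdc came to 31.3% and 32.2% in dd, against 31.3% and 36% in ff, and the groups overlapped. That sum includes Krt19, at 703.3 CPM in dd and 92.2 CPM in ff on average. The ratios depend on this choice of markers, and none was taken without Krt19. Gata2 came to 16.4% and 13% in dd, against 14% and 21.7% in ff, also overlapping, as did Lrp2. On this scale Acod1, Il13ra2, Errfi1, Zbtb16 and Tsc22d3 were lower in dd without overlap, with ratios of means between 0.276 for Zbtb16 and 0.654 for Acod1. Because the epithelial sum was itself higher in dd, 88.8% of all tested genes were lower without overlap on this scale, a larger share than 5 of 8. Relative to the stromal sum, Hdc came to 7.87% and 12.9% in dd, against 2.38% and 3.7% in ff, and 6 of the 8 members were higher in dd without overlap, beside 71.0% of all tested genes, as the stromal sum was lower in dd. Errfi1 and Zbtb16 overlapped there, with ratios of 1.16 and 0.926. No test was made on these scales. The part of tissue makeup in the Hdc difference was not tested.

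**Figure D4:**
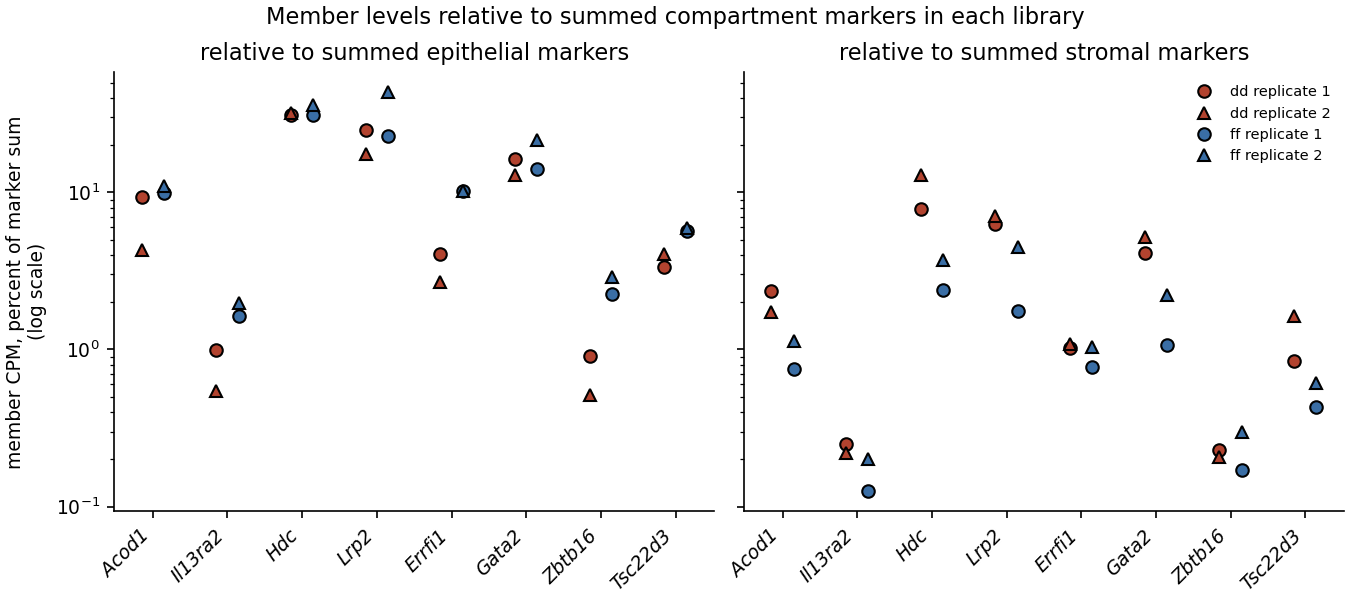
CPM of each member as a percent of the summed CPM of 15 epithelial markers (left) and of 12 stromal markers (right) in the same library, on a log scale. Hdc lies between 31.3% and 36% of the epithelial sum in all 4 libraries, and relative to the stromal sum both dd libraries lie above both ff libraries.

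The genes closest to each member in pattern were found by the root mean square difference of mean-centred log2 CPM over the 4 libraries, among 11958 genes with at least 5 CPM on average, leaving out Gm and Rik loci and the members themselves. For Hdc they were St6galnac2 (0.0143) and Celsr2 (0.0359), for Gata2 Prag1 (0.0234) and Myrip (0.0294), and for Errfi1 Abhd18 (0.00983) and Fam161a (0.0191). Tsc22d3 was closest to Por (0.0327) and Tnfaip3 (0.0338), Zbtb16 to Fam229b (0.0468) and Abi3bp (0.0577), and Il13ra2 to Coq8a (0.0373) and Kbtbd8 (0.0547). The nearest genes of Acod1 were Gng12 (0.046) and Ccl21a (0.0585). Those of Lrp2 were Naip5 (0.0684) and Ippk (0.101), farther off than for any other member. Over only 4 libraries, some of so many genes can lie close to a given pattern. The distances usual for other genes were not taken, and shared regulation was not tested.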

How the data were processed

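RNA from whole day 4 uteri was sequenced in 4 libraries, made with TRIzol and an Illumina TruSeq kit per the labels' protocols. The submitters' processing notes name STAR, edgeR and mm10. The sources used here give no read counter, annotation or strand setting. The deposited table holds raw counts per library, the authors' rescaled counts (a signal not used here), FPKM per the file headers, the authors' fold (a ratio, dd over ff) and their unadjusted p-value, whose test is not given.

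The deposited counts were compared with edgeR 4.0.16 (R 4.3.3): filterByExpr, TMM, glmQLFit and glmQLFTest, Benjamini-Hochberg adjustment over all tested genes and a threshold of 0.05. The fit was also run on simulated counts with known changes and a dispersion common to all genes. That run does not show how calls hold where replicates spread more widely. CPM are counts scaled to the TMM library size. Replicates differed beyond sampling noise (chi-square per degree of freedom 32.6 in dd and 32 in ff). Alternatives used limma 3.58.1 and DESeq2 1.42.0. Lists are described by counts and medians. All 54152 symbols matched GENCODE release M21, on the same build. By rule the text names the members, Mapk14, Pgr, up to 6 called genes of each list (or, with none called, the 2 most abundant), the 2 most abundant of a marker list, mast cell and neutrophil markers, and the 2 nearest patterns per member. Others are marked as chosen later. Alternatives were each library left out, other scalings and filters, a replicate block and the other tools. Members and lists were chosen with earlier results of these data known.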

Additional observations from a re-analysis of the deposited data

How the results depend on the processing

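Of 104 member values recomputed over 13 alternatives, 94 kept their direction and their side of the threshold, 4 passed newly (Gata2 3 times, Lrp2 once), 4 lost the call (Hdc) and 2 turned sign (Il13ra2). With 1 library left out the log2 change of Hdc ran between 0.88 and 1.34 and that of Il13ra2 between -0.43 and 0.20, and between 0 and 3 members, 1 and 3 other progesterone-responsive genes, and 82 (without ff replicate 1) and 1051 genes in all were called. These fits keep 3 libraries, so fewer calls do not by themselves show a weaker difference. Without a filter on low counts 2947 genes, 2 members and 11 other progesterone-responsive genes were called, and the DESeq2 Wald test called 3001, 2 and 12. The cause was not tested. With library size alone 8 other progesterone-responsive genes were called (2 higher, 6 lower), on a scale that moved the median of all genes to -0.0816, and 42.4% of all calls were higher, against 53.9% with TMM. In limma-trend on log2(FPKM + 0.5) no member was called and Hdc was at 1.10. Tsc22d1 turned sign with library size (-0.083), upper quartile factors (-0.0496) and a filter of 1 CPM in 2 libraries (-0.0065), and ran between -0.0798 and 0.0871 with 1 library left out.

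Over all genes, same-numbered libraries did not deviate together (correlation 0.0129 over 18530 genes). The sources used here do not say whether the numbers pair them. A pairing that acts on few genes would not show in this value. The replicate block gave 1531 calls, 1 member (Hdc, log2 1.11, adjusted p = 0.021) and 7 other progesterone-responsive genes, of which 3 were among the 5 called without it. With the block Hoxa10 (adjusted p = 0.0698), Hoxa11 (0.0598), Pgr (0.0652), Idh1 (0.0634) and Hbegf (0.0814) missed the threshold. Idh1 and Hbegf also missed it with library size (0.0568 and 0.0597), upper quartile factors (0.0623 and 0.0555) and limma-trend (0.055 and 0.0678), Idh1 with limma-voom (0.0534) and Hbegf with DESeq2 size factors (0.0504).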
